A study of Mus musculus with 36 samples.

Results

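The regions described here replicated early in both kinds of mouse B cell mapped in the study. In the fibroblast map their state was middle or late. A genomic bin of 20 kb was a member when its replication timing (RT) state was early (E) in the map of shLacZ CH12 cells and in the map of WT primary B cells, and middle (M) or late (L) in the map named for mouse embryonic fibroblasts (MEF) of WT genotype. Of 120754 autosomal bins with a state in all 3 maps, 3245 were members, which came to 64.9 Mb or 2.69% of them. In the MEF map 3204 members were M and 41 were L, and the MEF-late subset was thus 0.034% of the autosomal bins. The study splits its M state into early-like and late-like bins, but the maps do not hold that split. Members that were M in the MEF map may thus include early-like bins. Members were thus chosen by the states themselves, so that these counts are a description and no test was made on them.

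The study sequenced 36 Repli-seq libraries in 7 groups, and the B cell maps rest on 8 of them, 4 per map from 2 replicates of the early and late S phase fractions. CH12 is a mouse B cell lymphoma line, and the cells mapped here were not Rif1-deficient, had received a lentiviral shRNA against LacZ as the infection control, and were stimulated with IL4, CD40 and TGF beta according to the labels, which repeat this culture text for the primary cells. The primary cells were activated splenic B cells of WT mice, and the labels give neither age nor sex. Both were labelled with BrdU for 2 h. The study's methods call the 2 sorted samples per fraction technical replicates, and elsewhere say that sequencing replicates came from separately thawed vials of CH12 cells, so which kind these are is not settled. They were merged ahead of state calling, and each value comes from 1 map per cell type with no replicate error. The MEF map is tied to no sample label, and the study lists its reads as public data of other origin, so that cell type and origin cannot be told apart. Rif1-deficient and Mcm6-depleted groups were not analysed here. Read depth is unknown from the maps, the maps hold no RT value, and how far a member lay from the limit of its state cannot be given. No expression was measured, and the labelled cell types could not be checked against markers.

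Replication timing is the order in which stretches of the genome are copied during S phase. Domains that are rich in genes and open chromatin tend to be copied early, gene-poor and compact domains tend to be copied late, and many developmental genes change their timing between lineages. B lymphocytes depend on a known set of lineage regulators and surface receptors, among them Pax5, which maintains B cell identity, and the components that carry signals from the B cell receptor.

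Promoters of 4 list genes in these regions are shown first. A short sequence in them was found at a higher share of member promoters than of others. Of the 56 member genes on the 5 lymphoid and immune lists counted below, only these 4 held it in the bases shown. The letters are those of the NCBIM37 genome (mm9), 250 bases ending just before the annotated gene start, 5′ to 3′ on the gene's own strand, and capitals mark the ETS motif GAGGAAGT or its reverse complement ACTTCCTC, of the type recognised by PU.1, a transcription factor of B and myeloid cells. The genes encode Rel (an NF-kappaB subunit, chr11:23670971-23671220, minus strand), Vav1 (a guanine nucleotide exchange factor of antigen receptor signalling, chr17:57418273-57418522, plus strand), Fcrl1 (an Fc receptor-like protein of B cells, chr3:87180059-87180308, plus strand) and Tagap (a GTPase-activating protein, chr17:8118615-8118864, plus strand).
Rel: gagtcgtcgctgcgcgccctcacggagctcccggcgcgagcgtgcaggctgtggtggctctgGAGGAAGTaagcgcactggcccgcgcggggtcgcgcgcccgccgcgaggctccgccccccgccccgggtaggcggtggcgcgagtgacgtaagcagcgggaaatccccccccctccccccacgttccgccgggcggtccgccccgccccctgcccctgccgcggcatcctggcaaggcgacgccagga
Vav1: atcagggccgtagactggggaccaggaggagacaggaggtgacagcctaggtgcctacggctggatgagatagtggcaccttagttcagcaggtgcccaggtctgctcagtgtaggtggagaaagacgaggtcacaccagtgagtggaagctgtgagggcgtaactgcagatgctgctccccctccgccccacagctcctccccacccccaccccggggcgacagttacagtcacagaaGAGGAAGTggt
Fcrl1: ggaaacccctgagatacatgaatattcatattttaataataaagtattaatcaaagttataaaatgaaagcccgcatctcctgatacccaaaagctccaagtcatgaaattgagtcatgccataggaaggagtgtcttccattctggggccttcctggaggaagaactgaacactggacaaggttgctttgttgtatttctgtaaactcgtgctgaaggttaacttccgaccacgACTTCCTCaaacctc
Tagap: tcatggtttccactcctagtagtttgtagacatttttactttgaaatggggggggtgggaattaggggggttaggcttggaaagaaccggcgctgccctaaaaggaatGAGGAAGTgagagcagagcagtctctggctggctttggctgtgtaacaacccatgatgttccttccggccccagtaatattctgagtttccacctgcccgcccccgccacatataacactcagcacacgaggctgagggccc

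The motif began 188 bases upstream of the start in Rel, 11 in Vav1, 15 in Fcrl1 and 142 in Tagap. Searched on both strands in the 300 bases from 250 before to 50 after each start, GAGGAAGT was present in 45 of 785 member promoters (5.73%), which lay in 30 runs of adjacent members. The share was 2.64% of 9757 promoters that were E in all 3 maps, 2.85% of 1683 that were E in the MEF map only and 3.1% of all 21281 autosomal coding promoters. Motifs of 3 other B cell factors were searched in the same windows. The octamer ATGCAAAT, bound by Oct factors, was present in 1.40% of member promoters, 1.28% of those E in all 3 maps, 2.26% of those E in the MEF map only and 1.73% of all. The E box CAGGTG was present in 20.6%, 20.8%, 19.4% and 20.1% of the same classes in that order, and the EBF-type palindrome in 0.892%, 1.11%, 0.713% and 0.912%. A match describes letters in a window and not a bound site. Genes of 1 run are neighbours and often paralogs, the motifs were chosen after the maps had been seen, and no test was made. Promoters that were E in primary B cells only were not counted for motifs.

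The question behind the comparison is which early domains the B cell maps shared that the fibroblast map lacked. Of the 26610 autosomal bins E in both B cell maps, 23365 were also E in the MEF map, and members made up the remaining 12.2%. Seen from the MEF map, 57.6% of its 40546 E bins were E in both B cell maps, against 7.10% of its 45130 M bins and 0.117% of its 35078 L bins. The opposite class, E in the MEF map and in neither B cell map, was larger, with 10365 bins (8.58%). It outnumbered the members on 19 of 19 autosomes. With chromosome X, E covered 30.7% of bins in the MEF map, 28.6% in primary B cells and 22.7% in CH12 cells. A member also had to be E in 2 maps at once. What part this had in the difference was not tested. A further 4027 bins were E in primary B cells only.

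Members were unevenly spread over the autosomes. They made up 2.76% ± 1.36 of an autosome's bins (mean ± SD, n = 19 autosomes), from 0.505% of chromosome 8 to 5.42% of chromosome 17. Chromosome 18 was also low, with 23 members in 3 runs (0.524%), and chromosomes 19, 6 and 16 followed chromosome 17 with 4.53%, 4.40% and 4.22%. Autosomes also differed in how much of them was E in both B cell maps, with the lowest share on chromosome 3 and the highest, 45.4%, on chromosome 11. As a share of the bins E in both B cell maps, members were 2.87% on chromosome 8, 4.26% on chromosome 18 and 4.39% on chromosome 15, and at the other end 22.3% on chromosome 6, 20.6% on chromosome 3 and 20.4% on chromosomes 13 and 16. Chromosome 11, which carried the most E in both B cell maps, stood at 6.71%.

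**Figure D1:**
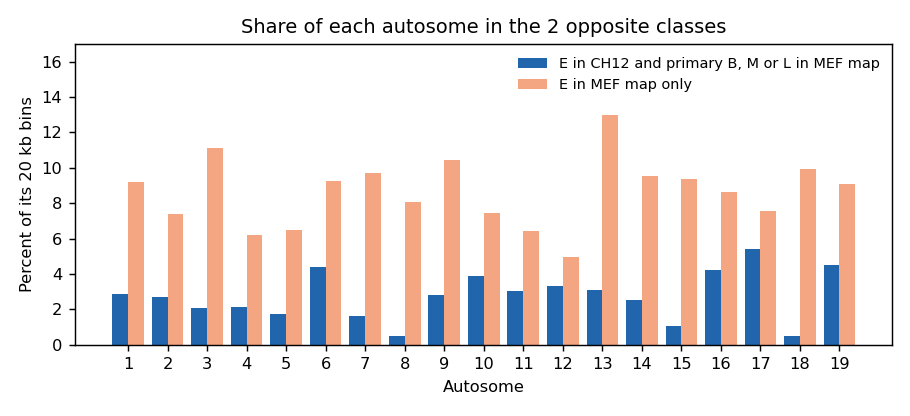
Share of the 20 kb bins of each autosome (percent, vertical axis) that were members (blue) and that were E in the MEF map only (orange), 1 pair of bars per autosome. Blue bars run from 0.505% on chromosome 8 to 5.42% on chromosome 17, and the orange bar is the taller on 19 of 19 autosomes.

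Adjacent members merged into 286 runs with a median length of 160 kb (quartiles 60 and 340 kb). The longest measured 1760 kb and 36 consisted of 1 bin. The 83 runs longer than the 300 kb smoothing span of the RT profiles held 2107 bins, 64.9% of the members. Runs differed by what bordered them. On 199 runs (1626 bins) the MEF map was E on 1 side, and these were short, with a median of 100 kb. On 71 runs (1292 bins, 39.8% of the members) the MEF map was E on neither side, and their median was 320 kb. Another 16 runs (327 bins, median 410 kb) lay between MEF E bins on both sides. Runs of the first kind adjoined an early domain that the MEF map also had, those of the second adjoined none, and those of the last filled a gap between MEF early domains.

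**Figure D2:**
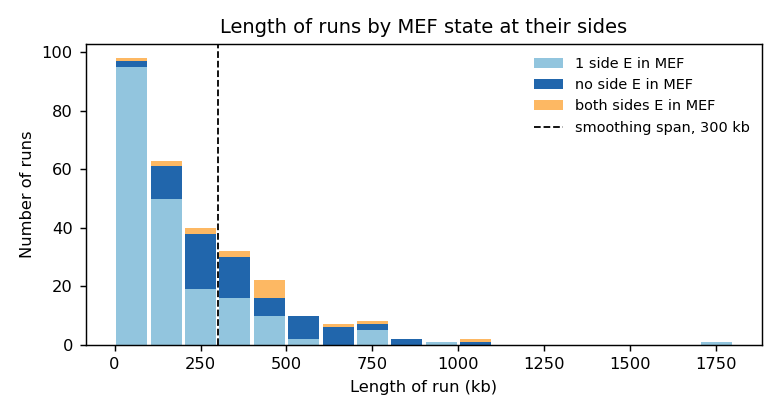
Number of runs (vertical axis) by length in kb (horizontal axis, classes of 100 kb), stacked by how many sides of the run were E in the MEF map, with the 300 kb smoothing span as a dashed line. Runs with 1 MEF-early side crowd the short end (median 100 kb) and runs with none reach further (median 320 kb).

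The median member lay 280 kb from the nearest bin that was E in the MEF map (quartiles 80 and 840 kb). Of the 3245 members, 231 were next to such a bin, 1542 (47.5%) were more than 300 kb away and 711 were more than 1000 kb away. The greatest distance was 7960 kb. Among the 537 autosomal E domains of the CH12 map, 243 held a member and 89 held no MEF E bin at all, and the latter had a median length of 340 kb. In the primary B map the numbers were 233 and 132 of 631, with a median of 400 kb for the 132.

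Within the MEF map, 1541 members (47.5%) lay in M domains between 2 E domains, 1335 (41.1%) in M domains between an E and an L domain, and 240 (7.40%) in M domains between 2 L domains. Another 88 lay in M domains at a chromosome end. Of all autosomal M bins of that map, 32.1% were in the first kind of domain, 48.4% in the second and 17.7% in the third. Members were therefore found more often in M domains enclosed by E, and less often in those enclosed by L, than M bins at large. No test of the difference was made, since bins of 1 domain are not independent.

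The outer ends of the runs were those with no MEF E bin beyond them. Apart from 1 end, a run stopped there because 1 or both B cell maps left E. That the B cell maps mostly did not end together thus follows in part from the member rule, which does not set the map that left first. At 245 of 341 outer ends (71.8%) the CH12 map left the E state while primary B cells stayed E, at 76 (22.3%) the reverse was seen, at 19 both left E in the same bin, and 1 end was a chromosome end or lacked a state. At 40 kb beyond the outer ends, 61.2% of primary B bins and 17.8% of CH12 bins were still E. At 200 kb the shares were 24.6% and 11.6%, and in the MEF map 4.5%. Across the whole maps, chromosome X included, E covered 28.6% of bins in primary B cells and 22.7% in CH12 cells, and what part this had in the difference at the ends was not tested. At the ends bordered by MEF E bins, the first bin beyond was E in the MEF map by definition. Further out all 3 maps mostly stayed E, with 93.9% of CH12, 98.3% of primary B and 97.4% of MEF bins still E at 180 kb.

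**Figure D3:**
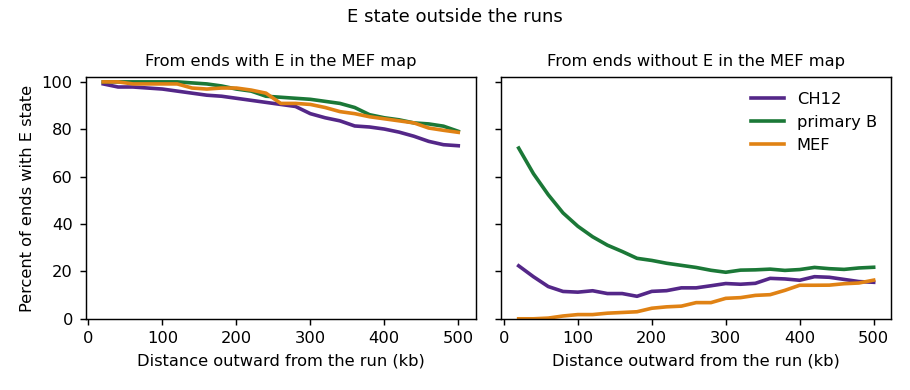
Percent of run ends with the E state (vertical axis) by distance outward from the run in kb (horizontal axis) in the CH12 (purple), primary B (green) and MEF (orange) maps, for ends bordered by E in the MEF map (left) and ends that were not (right). On the right the green line falls from 61.2% at 40 kb to 24.6% at 200 kb while the purple line is already at 17.8% at 40 kb.

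The longest run, chr10:42840001-44600000 (1760 kb, 88 bins), held the starts of 15 coding genes. Among them were Prdm1, the regulator of plasma cell differentiation, Atg5, an autophagy gene, and Cd24a, which encodes a surface glycoprotein of immature and activated lymphocytes. The other named genes were Sobp, Pdss2, Bend3, Qrsl1, Rtn4ip1 and Aim1. On 1 side all 3 maps were E, and the run reached 1740 kb from the nearest MEF E bin. In CH12 cells it was part of an E domain of 3580 kb and in primary B cells of one of 3720 kb. In the MEF map it lay in an M domain of 2840 kb between E and L.

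The next run in length, chr1:36940001-37960000 (1020 kb), was of another kind. It filled a whole MEF M domain of 1020 kb inside B cell E domains of 2200 and 3460 kb, with all 3 maps E on both sides. It held Inpp4a, a phosphoinositide phosphatase gene, Tmem131, Mgat4a, Cnga3, Unc50, Tsga10, Lipt1, Mitd1 and Mrpl30, none of them on the lymphoid lists.

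A run of equal length, chr11:23340001-24360000, held the starts of Rel and Bcl11a, a zinc finger factor needed for B cell development. Among the 9 coding gene starts of the run were also those of Pus10, Pex13, Papolg and Ahsa2. The CH12 E domain coincided with the run at 1020 kb, whereas the primary B domain extended to 2160 kb. The MEF map was M over one part and L over the other, which made this the run with the most MEF-late bins.

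The fourth run, chr6:128520001-129500000 (980 kb), held 26 coding gene starts of the natural killer receptor region, chiefly C-type lectin genes of the Klrb1, Clec2 and Clec families. Among them were Cd69, an early activation antigen of lymphocytes, Clec7a, a receptor for fungal glucans, and Klrb1c, a natural killer cell marker. Here too the CH12 E domain had the length of the run, 980 kb, with a primary B domain of 1240 kb. Several of these genes are paralogs, where unique alignment can leave fewer reads, and the part of this in the states was not tested.

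The fifth run, chr14:103120001-103960000 (840 kb), held Irg1, which encodes an enzyme induced in activated macrophages, as well as Mycbp2 and Scel. It was bordered by no MEF E bin and reached 1780 kb from the nearest one.

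**Figure D4:**
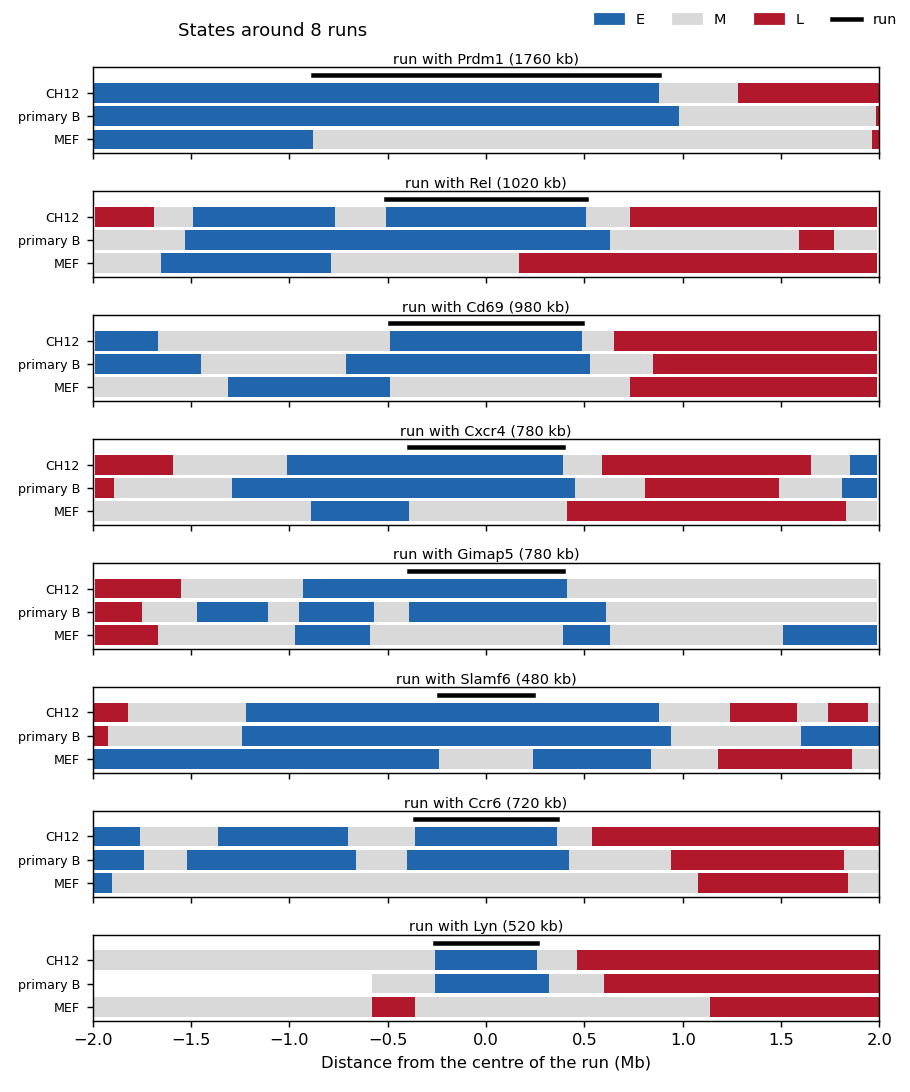
States in the CH12, primary B and MEF maps (blue E, grey M, red L, white no state) by distance from the centre of 8 runs in Mb, with the run as a black bar and its length above. Both B cell rows are blue under the whole bar and the MEF row is grey or red there. In the B cell rows the blue stops near the ends of the bar at Ccr6 and Lyn and goes on beyond both ends at Slamf6. At Prdm1 it goes on beyond the left end in both rows, and at the right end the CH12 row turns grey.

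The MEF-late subset consisted of 41 bins in 5 stretches on 5 autosomes, 0.82 Mb in all. Each B cell map was E there while the MEF map was L, so the timing differed by 2 states. The largest, chr11:24020001-24360000, had 17 bins and lay at the far end of the Rel and Bcl11a run. It overlapped the 3′ part of Bcl11a and held no coding gene start, the nearest being that of Bcl11a 41.9 kb away. The MEF L domain there measured 4340 kb. A stretch of 9 bins, chr16:27200001-27380000, held the starts of Ostn, which encodes the peptide osteocrin, and Uts2d, which encodes a urotensin-related peptide. It was a CH12 E domain of its own with 180 kb, within a MEF L domain of 1980 kb. A stretch of 8 bins, chr4:110960001-111120000, held the start of Bend5, which lies inside Agbl4.

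The remaining MEF-late stretches were small. That on chr19:14200001-14320000 had 6 bins and no coding gene, and its nearest start was that of the olfactory receptor gene Olfr1505, 207 kb away. That on chr1:87540001-87560000 was a single bin with the start of Sp100, a nuclear body gene, and part of Sp140. In all 4 coding genes started in MEF-late members, 4.88 per Mb, and 0 genes of the lists below did so. GC content in the 41 bins was 41.5%. When bins within 100 kb of a domain edge in any map were left out, 7 of the 41 remained, so most of the subset lay close to an edge that the 300 kb smoothing can shift.

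Gene content placed the members between other early classes. Members carried 12.3 coding gene starts per Mb of known bases, against 21.0 in bins E in all 3 maps, 10.1 in bins E in primary B cells only, 8.21 in bins E in the MEF map only and 8.95 in all autosomal bins. A coding start was present in 21.0% of members and in 32.3% of bins E in all 3 maps. Member density was below that of bins E in all 3 maps on 18 of 19 autosomes, the exception being chromosome 15 with 31.1 against 21.5 per Mb. Gene density was used to name the E state in each map, so that only the comparison among early classes is free of that step. In 96 of the 286 runs no coding gene started. These were short, with a median of 60 kb.

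GC content was 43.3% in members, 46.3% in bins E in all 3 maps, 42.1% in bins E in primary B cells only, 43.6% in bins E in the MEF map only and 41.9% in all autosomal bins, with an SD over member bins of 3.26. It was lower in members than in bins E in all 3 maps on 19 of 19 autosomes. Promoters that resembled CpG islands (at least 50% GC and an observed to expected CpG ratio of at least 0.6 in the 300-base window) made up 298 of 795 member genes (37.5%), 54.0% of genes E in all 3 maps, 37.4% of genes E in primary B cells only and 46.7% of genes E in the MEF map only. Genes of members had a median length of 18.2 kb, against 15.2 kb in bins E in all 3 maps, 17.9 kb in bins E in primary B cells only and 27.0 kb in bins E in the MEF map only.

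Coding genes by symbol were then counted against 14 lists, which were written with earlier results of these data known. Of 21281 autosomal coding symbols 785 started in members (3.69%), and of the 10542 that started in bins E in both B cell maps members held 7.45%. This second share is the background for the lists, since it asks only whether a gene early in B cells lacked the E state in the MEF map. Over 5 lymphoid and immune lists together, 160 genes were E in both B cell maps, of which 56 (35.0%, Wilson 95% interval 28.0 to 42.7%, counting error only) started in members. The other 104 were E in the MEF map as well. The 56 genes lay in 35 runs and are not independent of each other. With list genes within 300 kb of each other counted once, 38 of 124 remained in members (30.6%). The background of all coding genes was not counted in that way, so this share has no like value beside it. Only 6 of the 56 had a CpG island-like promoter (10.7%), against 23 of the 104 (22.1%).

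Of the B lineage transcription factors, 25 of 30 were E in both B cell maps and 6 of these 25 (24.0%) started in members. All 30 were E in primary B cells. Prdm1, Bcl11a and Rel have been described. Pax5 lay in chr4:44460001-44940000, a run of 480 kb that filled a MEF M domain between E domains, within B cell E domains of 3480 and 3580 kb. Ikzf1, which encodes the lymphoid factor Ikaros, started in chr11:11260001-11640000 (380 kb), and Foxp1, needed for early B cell development, started in chr6:99180001-99380000 (200 kb). Both genes extended beyond their runs, Foxp1 for most of its length. Both of these runs had a MEF E bin on 1 side. In the MEF map 23 of the 30 factors were E and 7 were M, with 0 in L.

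Of the B cell receptor signalling and surface genes, 15 of 38 that were E in both B cell maps started in members (39.5%), in 14 runs. Several stood far from any MEF early domain. Lyn, the Src family kinase that acts at the receptor, lay in chr4:3320001-3840000, where the E domains measured 520 kb in CH12 and 580 kb in primary B cells. The MEF M domain there lay between L domains, and the run reached 7460 kb from a MEF E bin. The L domain on its left lay ahead of base 3320001, at the start of the chromosome. How many known bases that L domain held was not looked at. Cd38, a surface ectoenzyme, lay in chr5:44080001-44440000 (360 kb), also in a MEF M domain between L domains and up to 6960 kb from a MEF E bin.

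Others of this list lay in runs that made up all or most of the E domain in CH12 cells. Prkcb, the protein kinase C that links the receptor to NF-kappaB, started in chr7:129020001-129620000 with a CH12 E domain of 600 kb. Ly6d, a marker of B lineage commitment, started in chr15:74420001-75060000 with CH12 and primary B domains of 640 and 720 kb. Cd86, a costimulatory ligand, lay in chr16:36380001-36980000 (600 kb) together with Hcls1, a leukocyte actin regulator. Bank1, a B cell scaffold protein, started in chr3:135940001-136380000 with a CH12 domain of 440 kb inside a primary B domain of 1600 kb.

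Further genes of this list sat at or between MEF early domains. Blnk, the adaptor downstream of the receptor, lay in chr19:40860001-41320000, a run of 460 kb with all 3 maps E on both sides. Ms4a1, which encodes CD20, lay in chr19:11160001-11520000 (360 kb), and Fcrl1 and Fcrl5 in chr3:86980001-87320000 (340 kb), each with a MEF E bin on 1 side. Cd55 and Dapp1 lay in runs of 480 and 240 kb with a MEF E bin on 1 side, and Siglecg in a run of 340 kb with none.

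Of the pan-leukocyte genes, 15 of 36 that were E in both B cell maps started in members (41.7%), in 9 runs. A run on chromosome 1, chr1:173440001-173920000 (480 kb), held 7 of them, namely Slamf1, Slamf6, Slamf7, Cd48, Cd84, Cd244 and Ly9, receptors of the signalling lymphocyte activation family. It filled a MEF M domain of 480 kb between E domains inside B cell E domains of 2100 and 2180 kb. Ptprc, which encodes CD45, lay in a shorter run, chr1:139920001-140100000 (180 kb). Itga4, an integrin subunit, lay in chr2:78660001-79220000 (560 kb) with no MEF E bin at either side, and Myb, a haematopoietic transcription factor, in chr10:20580001-21060000 (480 kb) with 1. Vav1, whose promoter is shown above, lay in a run of 380 kb, and Lcp2, an adaptor of antigen receptor signalling, in one of 360 kb.

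Of the cytokine, chemokine and lipid receptors, 7 of 31 started in members (22.6%), each in a run of its own. Cxcr4, the receptor that holds B cells in bone marrow and germinal centres, lay in chr1:130040001-130820000 (780 kb), at the end of an early domain shared by all 3 maps. The same run held Mcm6, a subunit of the replicative helicase and the only gene of 16 early origin licensing and firing genes found in members (6.25%). Ccr6, a chemokine receptor of B cells, and Tagap lay in chr17:7940001-8660000 (720 kb), which stood apart from MEF E bins by up to 2240 kb and had E domains of 720 and 820 kb in the B cell maps. Il2ra, which encodes a subunit of the interleukin 2 receptor, lay in chr2:11100001-11820000 (720 kb), with E domains of 720 and 840 kb. Ccr9 and Ccr2 lay in neighbouring runs of 220 and 200 kb on chromosome 9, both part of 1 primary B domain of 1340 kb, and the CH12 map was M at their facing ends. Il10ra and Tnfrsf1b lay in runs of 420 and 180 kb.

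Of the innate sensors and interferon-inducible GTPases, 13 of 30 started in members (43.3%), but in 3 runs only. The 8 Gimap genes, GTPases of lymphocyte survival, all lay in chr6:48300001-49080000 (780 kb). The MEF map was M there, and 8 of 8 Gimap genes were E in both B cell maps. Slfn1, Slfn2, Slfn5 and Slfn8 lay in chr11:82660001-83020000 (360 kb), with 8 of 9 Schlafen genes in this run. Nod2, a sensor of bacterial peptidoglycan, started in a run of 1 bin next to a MEF E bin.

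**Figure D5:**
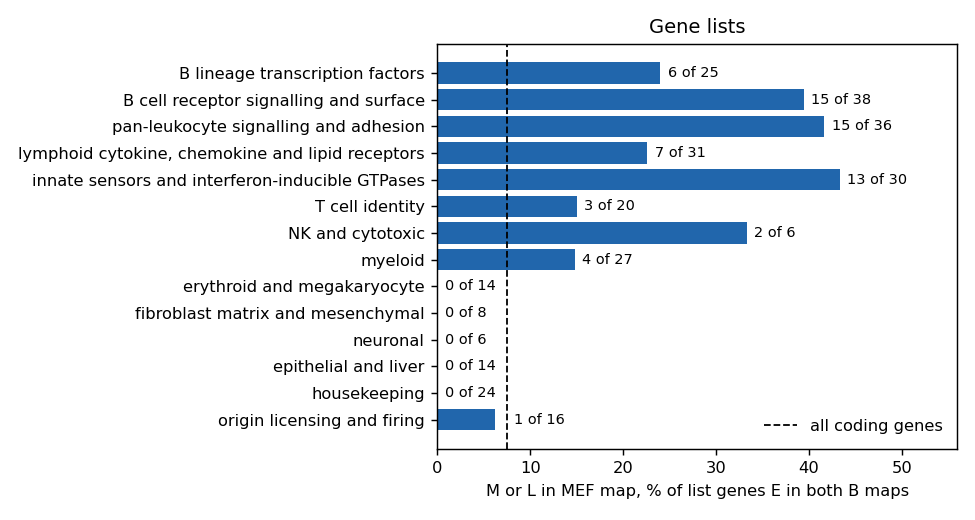
Percent of list genes E in both B cell maps that started in members, meaning M or L in the MEF map (horizontal axis), for each of 14 lists with the counts beside the bars, and the share of all coding genes (7.45%) as a dashed line. The 5 lymphoid and immune lists at the top lie between 22.6% and 43.3%, and 5 lists have 0 members.

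Genes of other blood cells appeared too. Of the T cell list 3 of 20 genes E in both B cell maps were in members (15%), namely Cd8a and Cd8b1, the coreceptor chains, in 1 run of 780 kb, and Ubash3a, a negative regulator of T cell receptor signalling, in a run of 760 kb. Of the myeloid list 4 of 27 were members (14.8%), Clec7a, Trem2 (a macrophage and microglia receptor), Emr1 (which encodes F4/80) and Csf2ra (a GM-CSF receptor subunit), and of the natural killer list 2 of 6, Klrb1c and Nkg7. Emr1 shared its run with Vav1, and Nkg7 with Siglecg, and these shares rest on too few genes to be set apart from 7.45%.

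Lists of other lineages had no gene in members. The counts were 0 of 14 erythroid and megakaryocyte genes, 0 of 8 fibroblast genes, 0 of 6 neuronal genes, 0 of 14 epithelial and liver genes and 0 of 24 housekeeping genes that were E in both B cell maps. With a background of 7.45% lists of 6 to 24 such genes would hold few or none, so the counts do not set these lists apart. The opposite class, E in the MEF map only, was counted for the same lists. Of 47 placed fibroblast genes 33 were E in the MEF map and 21 were E in the MEF map only, against 7.91% of all coding symbols in that class. It also held 3 of 23 erythroid and megakaryocyte, 3 of 30 neuronal, 5 of 30 epithelial and liver and 2 of 30 housekeeping genes.

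Some gene families that lie in clusters had several members in few runs. On the same base as the lists, genes E in both B cell maps (7.45% of all coding genes), members held 8 of 8 Gimap genes in 1 run, 8 of 9 Slamf family genes in 2 runs and 8 of 9 Schlafen genes in 1. They also held 4 of 6 Fc receptor-like genes in 2 runs, 8 of 11 Ms4a genes in 1, 19 of 26 C-type lectin genes in 2 and 9 of 17 chemokine receptor genes in 4. Shares were lower in other receptor families. Members held 5 of 20 interleukin receptor genes (25%), 5 of 46 Gpr genes (10.9%), 1 of 17 Tnfrsf genes (5.88%) and 0 of 9 purinergic receptor genes. Families without a known immune role were present as well, with 22 of 174 zinc finger Zfp genes (12.6%) in 10 runs and 5 of 36 olfactory receptor genes (13.9%) in 2. Of 12 collagen genes 0 were members, and of the vomeronasal receptor genes no more than 2 were E in both B cell maps. No Gbp gene of 11 was a member, since all 11 were E in primary B cells and 0 were E in CH12 cells. Of the Toll-like receptor genes 5 were E in both B cell maps, and all 5 were E in the MEF map. Each cluster counts as 1 position of the genome, and the family counts are no measure of independent events.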

How the data were processed

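According to the study's methods, the authors trimmed reads (Trim Galore 0.6.5), aligned them to mm9 (BWA 0.7.17), kept unique alignments (SAMtools 1.9), merged replicates, removed duplicates, computed the log2 early to late ratio in 20 kb windows (deepTools), smoothed it by loess (300 kb) and called 3 states with a hidden Markov model. The deposited maps give domains with a state number, which is neither a count nor a score and carries no RT value. Replicate error was thereby lost and edges blurred.

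The states are unnamed in the maps. The state between the pair that never touched was named M, and of that pair the one richer in coding gene starts E. Domains were laid on 20 kb bins of NCBIM37, whose chromosome lengths matched, with GENCODE M1 genes placed by start. No test was made. Members and lists were chosen with earlier results of these data known. Named were coding genes of the 5 longest runs and the MEF-late stretches and up to 4 genes per list by run length; the other list genes in members were named after their values were seen, as were the runs drawn. Some symbols stand under older names, and some items that the rule names are not reported here. Run finding and state naming were tested on 6000 simulated bins (5 of 5 checks passed). Python 3.11.15, numpy 2.4.6, pandas 2.3.3 and matplotlib 3.10.9 were used.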

Additional observations from a re-analysis of the deposited data

How the results depend on the processing

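Of 28 alternative values for 9 results, 20 stayed within the limit set for each result. This count is no measure of robustness, since some of the 20 had little or no room to move. Leaving out bins of wholly unknown bases, or the first 3 Mb of each chromosome, removed none of the 3245 members. The fibroblast and housekeeping lists began at 0 of 8 and 0 of 24 genes, with intervals of 0 to 32.4% and 0 to 13.8%. Leaving out bins could only return 0 for them. The values for the lymphoid lists could move, and all stayed within their interval. Without bins within 100 kb of a domain edge, members fell to 1.86% of bins (1336 of 71742), the MEF-late subset to 0.00976% (7 bins), and genes starting in members to 2.48% from 3.71%, while GC content was 43.5%. The lymphoid lists then stood at 28.7% of genes E in both B cell maps against a background of 3.79%. With chromosome X members made up 2.99%. Counting genes by any overlap gave 4.46%. Only runs longer than 300 kb left 83 runs with a median of 440 kb. The cause of these shifts was not tested beyond the construction of each alternative. Counting neighbouring list genes once (30.6%) was added with the data known. Depth cannot be read from the maps.

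No paired analysis was possible because each map pools its replicates, and for the same reason leaving out a replicate was not run.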
